A study of Mus musculus with 6 samples.

Results

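Respiratory complexes III, IV and V are the last 3 machines of mitochondrial oxidative phosphorylation, and their nuclear genes were examined in epididymal white adipose tissue (eWAT) of mice with an adipocyte deletion of Mettl14, a subunit of the enzyme that writes N6-methyladenosine on RNA, and of their controls. The genes were taken by symbol, as every gene starting with Uqcr (complex III), with Cox4, Cox5, Cox6, Cox7 or Cox8 (complex IV) or with Atp5 (complex V). This gave 43 of the 21361 genes in the deposited expression table. They were 8 genes of complex III, 18 of complex IV and 15 of complex V, together with Atp5s and Atp5sl, which RefSeq now names Dmac2l and Dmac2 and which are not subunits. Mettl14Δfat mice carry floxed Mettl14 alleles (Mettl14f/f) and an adiponectin-Cre transgene that deletes the gene in adipocytes, brown ones included. Their controls were Mettl14f/f mice without Cre, whose labels give the genotype as WT. The 6 male mice, 3 per genotype, were put on a high fat diet (HFD) at 8 weeks of age and were fasted overnight, and each library came from 1 mouse. The HFD lasted 16 weeks by the sample labels and 20 weeks by the series description.

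Complex III (the cytochrome bc1 complex) passes electrons from ubiquinol to cytochrome c, complex IV (cytochrome c oxidase) passes them on to oxygen, and complex V (ATP synthase) uses the proton gradient built by the chain to make ATP. The catalytic cores of complexes III and IV are in part encoded by mitochondrial DNA, and the nuclear genes described here encode the other subunits, among them the Rieske protein of complex III and the catalytic head of complex V. Several of them exist as a ubiquitous isoform and an isoform of heart, muscle, lung or testis. White adipocytes hold few mitochondria, while brown and beige adipocytes hold many and express the muscle isoforms Cox7a1 and Cox8b.

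The values are FPKM (fragments relative to the transcript's length and the library's total) as deposited, divided by a scaling factor per library. Those factors were 1.04 to 1.07 in Mettl14Δfat and 0.932 to 0.963 in Mettl14f/f. Library depth was estimated from the authors' mean scaled counts at 19200000 fragments in Mettl14Δfat and 22200000 in Mettl14f/f. Since those counts were already scaled between libraries, the estimates give only the order of depth and cannot show that the genotypes differed in it. Mettl14 itself was at 4.21, 4.12 and 4.27 FPKM in Mettl14Δfat eWAT, against 5.35, 5.01 and 5.81 FPKM in Mettl14f/f eWAT, or −0.30 on the log2 scale (limma adjusted p = 0.0108). White adipocyte markers were abundant in both genotypes, with 5 of 16 higher and 2 lower. For these and the other markers, the shares over all genes tested were 24.8% higher and 24.7% lower. Adiponectin (Adipoq), which defines these cells, had 370.4, 434 and 246 FPKM in Mettl14Δfat eWAT and 588, 333 and 484 FPKM in Mettl14f/f eWAT. Mettl14Δfat replicates 1 and 2 stood apart, since male germ line transcripts were found in them. The 13 germ line markers summed to 222 and 342 FPKM there, to 12.8 FPKM in Mettl14Δfat replicate 3 and to between 12.4 and 13.7 FPKM in Mettl14f/f eWAT, so results are also given with replicate 3 alone. The 9 epithelial and mesothelial markers summed to 66.4 and 109.8 FPKM in these replicates and to 17.0 FPKM in Mettl14Δfat replicate 3. In Mettl14f/f eWAT they summed to between 25.4 and 32.5 FPKM, and none of the 8 tested was called. Epcam, Krt8, Krt18, Krt19 and Cdh1 were high in replicates 1 and 2. The mesothelial markers Msln and Upk3b were within or below the Mettl14f/f range there. Wt1, also mesothelial, had 4.42 and 5.05 FPKM there, against 4.09 to 4.44 FPKM in Mettl14f/f eWAT. All 12 endothelial markers were higher in Mettl14Δfat eWAT (summed 461 to 527 FPKM, against 226 to 281 FPKM in Mettl14f/f eWAT). Of 16 macrophage markers, 10 were lower and none was higher (summed 4223 to 8313 FPKM in Mettl14Δfat eWAT and 13138 to 14648 FPKM in Mettl14f/f eWAT). The libraries hold RNA of the whole tissue, in which fewer cells of a type and less RNA per cell cannot be told apart, and the part of these markers in the results was not tested.

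Most subunit genes of complexes III, IV and V were higher in Mettl14Δfat eWAT, and none was lower. Of the 43 genes, 42 averaged 1 FPKM or more, the filter for testing. By limma, with calls at an adjusted p under 0.05, 32 of these were higher, 10 were not called and none was lower, all 42 log2 fold changes being above 0. Among all 12955 genes tested, 24.8% were higher and 24.7% lower. In complex III 7 of 8 genes rose, in complex IV 13 of 17 and in complex V 12 of 15. The median log2 fold change was 0.54 for complex III, 0.51 for complex IV without Cox8c, whose Mettl14f/f libraries were all listed at 0, and 0.27 for complex V, beside 0.01 for all genes tested. For 35 of the 42 genes all 3 Mettl14Δfat libraries lay above all 3 Mettl14f/f libraries, as they did for 30.3% of all genes tested, and for none of the 42 did they lie below, as they did for 30.9% of all genes. The genes not called were Uqcrc1, Cox6a2, Cox6b2, Cox7a2l, Cox8c, Atp5g1, Atp5g2, Atp5e, Atp5s and Atp5sl.

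**Figure D1:**
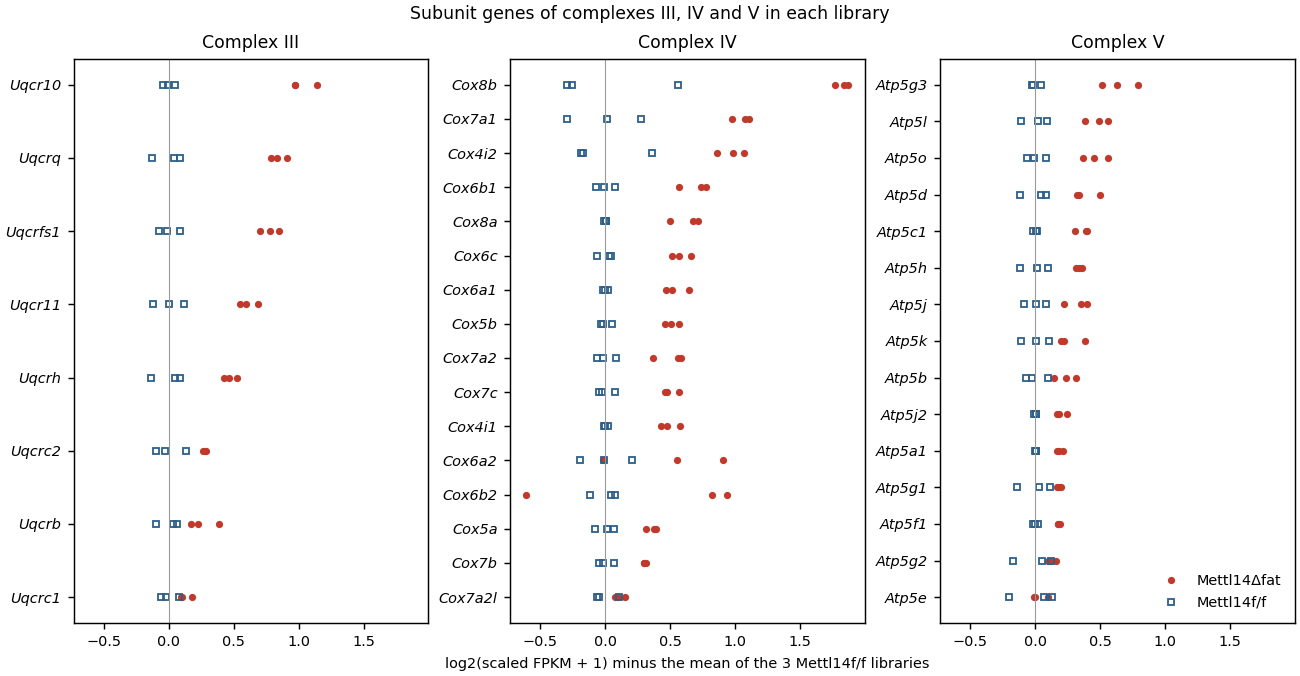
Each row is a subunit gene and each point a library (filled circles, Mettl14Δfat; open squares, Mettl14f/f), placed by its log2(scaled FPKM + 1) minus the mean of the 3 Mettl14f/f libraries; Cox7b2 and Cox8c, listed at 0 in all Mettl14f/f libraries, are not drawn. The Mettl14Δfat libraries lie to the right of the Mettl14f/f libraries for all 8 genes of complex III and for most genes of complexes IV and V, with the widest gaps at Cox8b, Cox7a1 and Uqcr10.

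These counts moved with transcript length, a pattern noticed after the data were seen. Among the 1016 genes tested whose longest annotated transcript is at most 1000 bases, the median log2 fold change was 0.25, with 34.9% higher and 8.66% lower, and it was −0.09 among genes over 4000 bases. The respiratory genes are short, with a median of 725 bases, and 29 of the 42 tested are at most 1000 bases long. Of these 29, 24 were higher, and of the 13 longer ones 8 were higher, where 24.0% of all longer genes were. With the trend over transcript length removed from each library, 20 of 42 were higher (4 in complex III, 11 in complex IV and 5 in complex V, among them Atp5g1, which was not called above), Atp5e was lower, and 23.0% of all genes were higher. The median log2 fold change of the 42 genes was then 0.23. This fit uses the longest annotated transcript, which is 4715 bases for Atp5g1, against 731 for Atp5g2 and 723 for Atp5g3. Whether that transcript of Atp5g1 is the one expressed here was not tested.

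The counts were also lower in several fits with fewer libraries. In a fit of Mettl14Δfat replicate 3 alone, which takes this library to vary like the others, 19 of 41 genes tested were higher (4 in complex III, 11 in complex IV, 3 in complex V, and Atp5sl), and Cox6b2 was lower, while 13.2% of all genes were higher. With all 6 libraries and the germ line level as a covariate, 25 of 42 were higher, beside 16.4% of all genes. Leaving out Mettl14f/f replicate 2 or 3 also gave 25 of 42, beside 18.5% and 18.8% of all genes. Both replicates had germ line markers as low as in the other Mettl14f/f library. The part of the germ line signal in these lower counts was not tested. Of the 42 genes, 17 were higher in the fit reported here and in all 17 alternative fits. The fits draw on the same 6 libraries, and how many of all genes tested were higher in every fit was not counted. The 17 were Uqcr10, Uqcrq, Uqcrfs1 and Uqcr11 of complex III, Cox8b, Cox7a1, Cox6b1, Cox8a, Cox6c, Cox6a1, Cox5b, Cox7a2, Cox7c and Cox4i1 of complex IV, and Atp5g3, Atp5o and Atp5c1 of complex V. Without any scaling between libraries the median of all genes moved to 0.15, 4672 genes were higher and 1963 lower, and 38 of the 42 respiratory genes were higher.

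**Figure D2:**
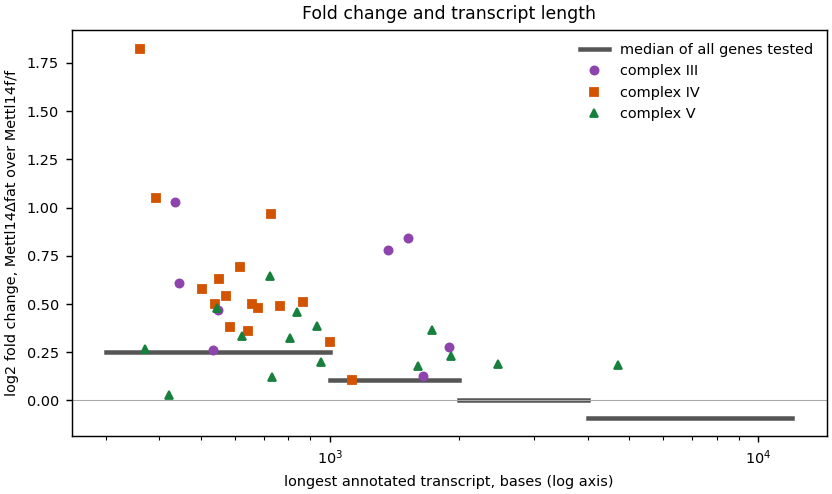
Log2 fold change (Mettl14Δfat over Mettl14f/f) of each tested subunit gene except Cox8c against the length of its longest annotated transcript in bases on a log axis, by complex, with grey bars for the median of all genes tested in 4 length classes. The class medians step down from 0.25 for the shortest to −0.09 for the longest transcripts, and most genes of complexes III and IV lie above the bar of their class.

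In complex III the small subunits Uqcr10 and Uqcrq and the Rieske protein rose most, and Uqcrb and the core proteins least. Uqcr10, a small subunit at the membrane, was at 238, 269 and 238 FPKM in Mettl14Δfat eWAT, against 120.4, 118 and 126 FPKM in Mettl14f/f eWAT. Every Mettl14Δfat library was thus far above every Mettl14f/f library, a 2.05-fold difference of means with a log2 fold change of 1.03 (SE 0.0714, limma adjusted p = 2.5e-04). Its promoter is shown because Uqcr10 had the largest change in complex III. It runs from 250 bases before to 50 bases after the annotated start on the minus strand of chr11:4704295-4704594 (RefSeq, GRCm38.p6), is written 5′ to 3′ in lower case, and holds no match to the 4 motifs searched for here.

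Uqcr10: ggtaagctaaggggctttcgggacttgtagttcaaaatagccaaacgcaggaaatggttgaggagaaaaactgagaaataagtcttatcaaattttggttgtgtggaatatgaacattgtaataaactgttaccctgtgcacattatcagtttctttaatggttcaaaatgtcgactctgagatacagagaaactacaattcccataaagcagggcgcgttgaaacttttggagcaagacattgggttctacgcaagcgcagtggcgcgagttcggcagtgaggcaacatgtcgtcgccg

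Uqcrq, a small subunit that binds ubiquinone, had 98.0, 104 and 95.0 FPKM in Mettl14Δfat eWAT and 49.8, 58.1 and 56.2 FPKM in Mettl14f/f eWAT, a log2 fold change of 0.84 (SE 0.0756, limma adjusted p = 4.8e-04). Uqcrfs1, the Rieske iron-sulfur protein that hands electrons to cytochrome c1, had 94.0, 98.5 and 88.9 FPKM in Mettl14Δfat eWAT and 53.6, 51.5 and 57.7 FPKM in Mettl14f/f eWAT, a log2 fold change of 0.78 (SE 0.0681, limma adjusted p = 4.5e-04). Both are among the 13 genes with longer transcripts, and over 17 alternatives the log2 fold change was at least 0.65 for Uqcrfs1 and at least 0.74 for Uqcrq. Uqcr11, a further small subunit, had 225, 240.0 and 218 FPKM in Mettl14Δfat eWAT and 149, 137 and 162 FPKM in Mettl14f/f eWAT (log2 fold change 0.61, SE 0.0808, limma adjusted p = 0.00165).

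Uqcrb, a subunit of the ubiquinone-binding part, had the highest mean of the complex, with 226, 202 and 195 FPKM in Mettl14Δfat eWAT and 181, 177 and 162 FPKM in Mettl14f/f eWAT. The groups did not overlap, but the log2 fold change was only 0.26 (SE 0.0808, limma adjusted p = 0.0352), and it was −0.017 with the length trend removed (limma adjusted p = 0.877, range 0.00757 to 0.877 in 17 alternatives). The hinge protein Uqcrh and the core protein Uqcrc2 rose by log2 fold changes of 0.47 and 0.28, and the other core protein, Uqcrc1, was not called at 0.12 (limma adjusted p = 0.136). Uqcrq overlaps Gdf9, Uqcrc2 overlaps Pdzd9 and Uqcrh overlaps a pseudogene in the annotation, and no source used here says whether the counting used strand.

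In complex IV all 10 ubiquitous isoforms and single-gene subunits rose, by log2 fold changes of 0.30 to 0.69, and the tissue isoforms Cox8b, Cox7a1 and Cox4i2 rose by more. Cox6a1, the ubiquitous isoform of a small regulatory subunit, had the highest mean of all 43 genes, with 639.9, 700.5 and 619 FPKM in Mettl14Δfat eWAT and 448, 454 and 443 FPKM in Mettl14f/f eWAT (log2 fold change 0.54, SE 0.0721, limma adjusted p = 0.00167). Cox8a, the ubiquitous isoform of a small membrane subunit, had 636, 655 and 564 FPKM in Mettl14Δfat eWAT and 400.4, 400.2 and 396 FPKM in Mettl14f/f eWAT (log2 fold change 0.63, SE 0.0773, limma adjusted p = 0.00125). The Mettl14f/f libraries differed from each other by little in both genes, and the lowest Mettl14Δfat library was replicate 3 in both.

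Cox6b1, which faces the intermembrane space where cytochrome c binds, had 585, 571 and 507 FPKM in Mettl14Δfat eWAT and 360.2, 339.6 and 326 FPKM in Mettl14f/f eWAT (log2 fold change 0.69, SE 0.0820, limma adjusted p = 0.00109). Cox4i1, the ubiquitous form of the subunit through which ATP inhibits the enzyme, had 403, 433 and 390.2 FPKM in Mettl14Δfat eWAT and 289, 294 and 288 FPKM in Mettl14f/f eWAT (log2 fold change 0.49, limma adjusted p = 0.00166). Cox7a2, the ubiquitous partner of Cox7a1, had 114, 112 and 97.9 FPKM in Mettl14Δfat eWAT and 74.8, 80.3 and 72.5 FPKM in Mettl14f/f eWAT (log2 fold change 0.50, limma adjusted p = 0.00298). In none of these genes did the groups overlap. Cox7a2 overlaps Tmem30a and a pseudogene, with which its reads may be shared.

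Cox7b, another small membrane subunit, had 83.3, 82.4 and 82.5 FPKM in Mettl14Δfat eWAT and 65.9, 70.1 and 64.8 FPKM in Mettl14f/f eWAT (log2 fold change 0.30, limma adjusted p = 0.00479). Cox7a2l, which ties complexes III and IV into supercomplexes, had 148, 149.7 and 156 FPKM in Mettl14Δfat eWAT and 134, 151 and 136 FPKM in Mettl14f/f eWAT, and these overlapped (log2 fold change 0.11, SE 0.0678, limma adjusted p = 0.226). The remaining single-gene subunits Cox5a, Cox5b, Cox6c and Cox7c rose by log2 fold changes of 0.36 to 0.58.

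The muscle isoform Cox8b changed most. It stood at 47.7, 46.6 and 44.3 FPKM in Mettl14Δfat eWAT, against 18.6, 9.84 and 10.1 FPKM in Mettl14f/f eWAT. The Mettl14Δfat libraries were close to each other, while Mettl14f/f replicate 1 was above the other Mettl14f/f libraries but below every Mettl14Δfat library. The means differed 3.59-fold, with a log2 fold change of 1.82 (SE 0.224, limma adjusted p = 0.00124) that ranged from 1.51 to 2.10 over 17 alternatives. The promoters of Cox8b (minus strand of chr7:140900397-140900696) and Cox8a (minus strand of chr19:7217567-7217866) are shown because the muscle isoform changed far more than its ubiquitous partner. Capitals mark CTTCCGG, the reverse complement of CCGGAAG, a core motif of the ETS factor GABPA (NRF2), which Cox8a holds at 5 bases before and 32 bases after its start and Cox8b does not hold.

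Cox8b: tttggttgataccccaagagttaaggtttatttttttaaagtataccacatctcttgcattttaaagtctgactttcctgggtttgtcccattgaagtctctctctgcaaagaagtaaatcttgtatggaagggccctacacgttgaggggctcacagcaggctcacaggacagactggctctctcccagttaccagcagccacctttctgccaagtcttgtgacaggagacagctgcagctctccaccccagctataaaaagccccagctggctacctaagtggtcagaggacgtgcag
Cox8a: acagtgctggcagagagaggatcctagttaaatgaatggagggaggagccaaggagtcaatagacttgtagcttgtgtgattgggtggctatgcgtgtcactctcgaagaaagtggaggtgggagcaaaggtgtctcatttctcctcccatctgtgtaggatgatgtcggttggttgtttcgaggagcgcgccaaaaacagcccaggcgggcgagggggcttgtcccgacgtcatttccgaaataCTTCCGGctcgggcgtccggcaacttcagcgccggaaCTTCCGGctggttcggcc

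Cox7a1, the heart and muscle partner of Cox7a2, stood at 11.8, 12.8 and 13.1 FPKM in Mettl14Δfat eWAT, against 5.61, 6.92 and 4.34 FPKM in Mettl14f/f eWAT. All Mettl14Δfat libraries lay well above the Mettl14f/f libraries, with a log2 fold change of 1.05 (SE 0.139, limma adjusted p = 0.00163). Cox4i2, the isoform of lung and of low oxygen, was at 6.18, 6.65 and 5.61 FPKM in Mettl14Δfat eWAT and 2.24, 2.20 and 3.66 FPKM in Mettl14f/f eWAT, again without overlap (log2 fold change 0.97, SE 0.156, limma adjusted p = 0.00319, highest adjusted p 0.0523 over 17 alternatives). Cox4i2 overlaps Bcl2l1, and Cox6a2 overlaps Itgad, in the annotation. Cox6a2, the isoform of heart and skeletal muscle, had 4.59, 2.78 and 6.15 FPKM in Mettl14Δfat eWAT and 2.79, 2.34 and 3.41 FPKM in Mettl14f/f eWAT. These values overlapped and the gene was not called (log2 fold change 0.48, SE 0.235, limma adjusted p = 0.132, range 0.0138 to 0.457 in 17 alternatives).

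Of 16 markers of skeletal muscle 12 were tested, 1 (Eno3) was higher and 2, Acta1 and Pvalb, were lower. The 16 summed to 50.4 to 57.1 FPKM in Mettl14Δfat eWAT and 67.9 to 78.3 FPKM in Mettl14f/f eWAT, but this lower sum rested on Acta1 and Pvalb. The other 10 tested all had a log2 fold change above 0, with a median of 0.29. Without Acta1 and Pvalb the sums were 34.1, 31.2 and 29.0 FPKM in Mettl14Δfat eWAT and 16.0, 28.6 and 28.4 FPKM in Mettl14f/f eWAT, close to each other except in Mettl14f/f replicate 1. Of 14 markers of brown and beige adipocytes only 4 passed the filter, and of these the potassium channel Kcnk3 and the proton channel Otop1 were higher. Tested without the filter, Elovl3, Prdm16 and Tbx1 were also higher and Dio2, Lhx8 and Tmem26 lower. The 14 summed to 51.6 to 66.0 FPKM in Mettl14Δfat eWAT and 17.5 to 20.8 FPKM in Mettl14f/f eWAT, and Kcnk3 made most of the Mettl14Δfat sum, with 43.9, 51.1 and 37.7 FPKM, against 6.92, 8.25 and 9.64 FPKM in Mettl14f/f eWAT. Ucp1, the uncoupling protein that defines these cells, was at 0.272, 0.168 and 0.135 FPKM in Mettl14Δfat eWAT and 0.613, 0.193 and 0.446 FPKM in Mettl14f/f eWAT, under the filter in both genotypes. The part of any of these cells in the levels of Cox7a1 and Cox8b was not tested.

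**Figure D3:**
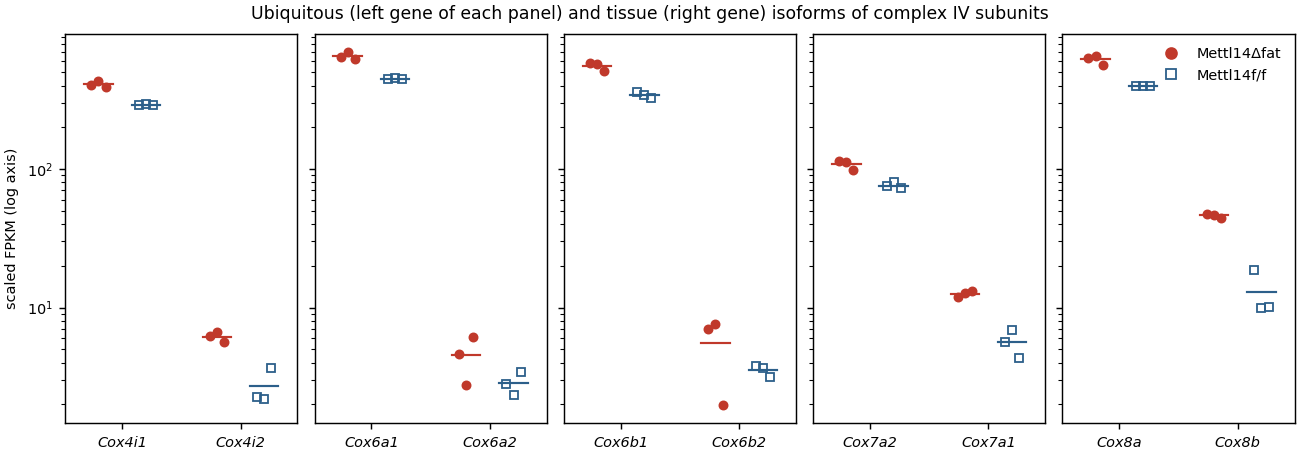
Scaled FPKM of the ubiquitous (left gene of each panel) and tissue isoform (right gene) of 5 complex IV subunits on a log axis, with filled circles for Mettl14Δfat libraries, open squares for Mettl14f/f libraries and lines for group means. The ubiquitous isoforms exceed their tissue partners in every library, and the groups separate for Cox4i2, Cox7a1 and Cox8b but overlap for Cox6a2 and Cox6b2.

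Isoform ratios within a library do not depend on scaling between libraries. Cox8b made 6.97, 6.64 and 7.28% of the Cox8b and Cox8a FPKM in Mettl14Δfat eWAT, against 4.44, 2.40 and 2.49% in Mettl14f/f eWAT. The log2 ratio differed by 1.28 without overlap, which gives an exact permutation p of 0.1, two-sided, the smallest that 3 mice against 3 allow (0.16 after Benjamini-Hochberg adjustment over the 8 pairs tested). Cox7a1 made 9.42, 10.2 and 11.8% of the Cox7a1 and Cox7a2 FPKM in Mettl14Δfat eWAT, against 6.97, 7.94 and 5.65% in Mettl14f/f eWAT, a difference of 0.68 in the log2 ratio. Cox4i2 made 1.51, 1.51 and 1.42% of the Cox4i2 and Cox4i1 FPKM in Mettl14Δfat eWAT, against 0.769, 0.743 and 1.26% in Mettl14f/f eWAT, a difference of 0.73. Both ratios had the same smallest exact permutation p of 0.1. For these 3 pairs the shares did not overlap between genotypes, narrowly so for Cox4i2, and the tissue isoform was the smaller share in every library. The ratios of Cox6a2 to Cox6a1 and of Cox6b2 to Cox6b1 overlapped between genotypes, with differences of 0.06 and −0.27 and an exact permutation p of 1 for both.

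**Figure D4:**
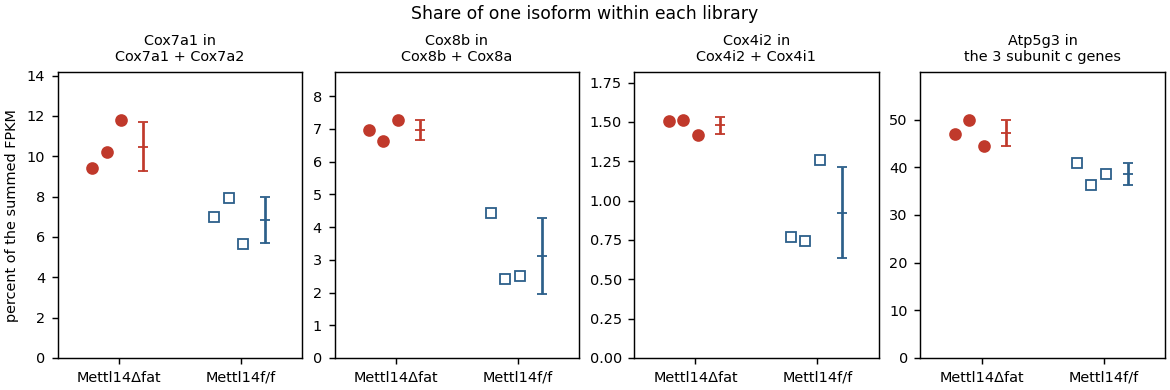
Share in percent of the summed FPKM taken by Cox7a1, Cox8b and Cox4i2 with their ubiquitous partners, and by Atp5g3 among the 3 genes of ATP synthase subunit c; points are libraries and the bars beside them the mean ± SD (n = 3) of each genotype, with every axis starting at 0. In all 4 panels the 3 Mettl14Δfat libraries lie above the 3 Mettl14f/f libraries.

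Cox8c and Cox7b2 had values above 0 only in the 2 libraries with high germ line markers. Cox8c, the testis form of subunit 8, was at 4.14 and 5.28 FPKM in Mettl14Δfat replicates 1 and 2 and was listed at 0 in replicate 3 and in all Mettl14f/f libraries. Cox7b2, the testis form of Cox7b and the gene that did not pass the filter, was at 0.911 and 1.83 FPKM in the same replicates and was listed at 0 in the other 4 libraries. Prm1, a protamine of sperm chromatin, had 58.3, 87.5 and 0.145 FPKM in Mettl14Δfat eWAT and 0.228, 0.140 and 0.562 FPKM in Mettl14f/f eWAT. Cox6b2, the testis form of Cox6b1, was at 7.01, 7.64 and 1.97 FPKM in Mettl14Δfat eWAT and 3.77, 3.66 and 3.16 FPKM in Mettl14f/f eWAT. Replicate 3, the Mettl14Δfat library with germ line markers at the level of Mettl14f/f eWAT, was thus the lowest of all 6. Cox6b2 was not called over all libraries (log2 fold change 0.38, limma adjusted p = 0.446). With replicate 3 alone its log2 fold change was −0.59, and with the germ line level as a covariate it was −0.58. Both of these values rest mostly on replicate 3. Its adjusted p ranged from 4.1e-04 to 0.831 over 17 alternatives.

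**Figure D5:**
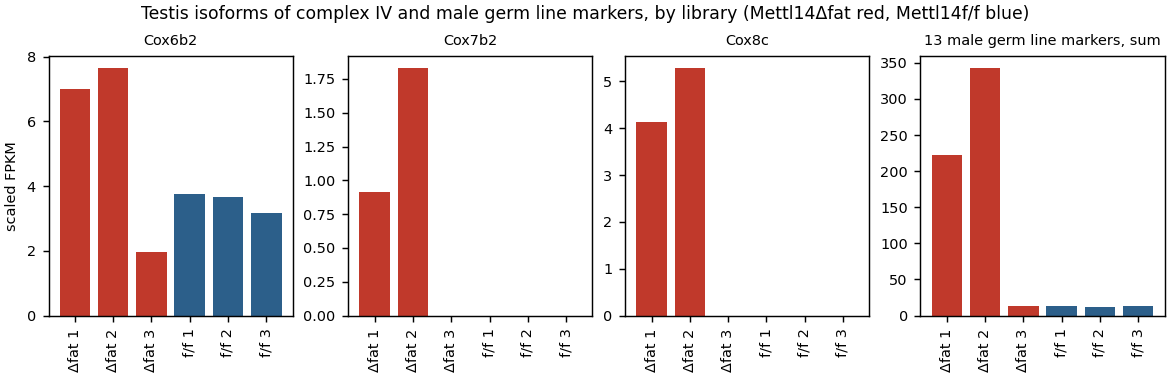
Scaled FPKM per library of Cox6b2, Cox7b2, Cox8c and the sum of 13 male germ line markers (bars from 0; Mettl14Δfat red, Mettl14f/f blue). Cox7b2 and Cox8c have bars only in Mettl14Δfat replicates 1 and 2, where the marker sum is 222 and 342 FPKM, and Cox6b2 is lowest in Mettl14Δfat replicate 3.

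In complex V the increase was largest in 1 gene of the rotor ring and smaller elsewhere. The difference between the complexes was not tested. Atp5g3, 1 of the 3 genes whose products mature to the same subunit c of the proton-driven ring, had 289, 324 and 268 FPKM in Mettl14Δfat eWAT and 184, 185 and 193 FPKM in Mettl14f/f eWAT. The groups were far apart, with a 1.57-fold difference of means and a log2 fold change of 0.64 (SE 0.0834, limma adjusted p = 0.00151). Its promoter (minus strand of chr2:73911277-73911576) is shown since Atp5g3 changed most in complex V. The first stretch in capitals, TGACCTT, is the reverse complement of AAGGTCA, a site of the estrogen-related receptors (ERR), at 52 bases before the start, and the second is a match to GCGC, any base and TGCGC, the palindromic site of the factor NRF1, at 12 bases after it.

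Atp5g3: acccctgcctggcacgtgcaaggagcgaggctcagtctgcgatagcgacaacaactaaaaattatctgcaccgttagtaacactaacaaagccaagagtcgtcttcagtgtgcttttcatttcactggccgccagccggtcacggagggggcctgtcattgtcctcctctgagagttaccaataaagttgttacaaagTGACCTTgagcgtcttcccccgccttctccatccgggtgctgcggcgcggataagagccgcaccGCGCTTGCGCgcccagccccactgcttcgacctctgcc

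Atp5g1 had 107, 104 and 106 FPKM in Mettl14Δfat eWAT and 84.2, 101 and 94.4 FPKM in Mettl14f/f eWAT, which did not overlap but were not called (log2 fold change 0.18, SE 0.0761, limma adjusted p = 0.0858). Atp5g2 had 219, 221 and 228 FPKM in Mettl14Δfat eWAT and 181, 223 and 212 FPKM in Mettl14f/f eWAT, which overlapped (log2 fold change 0.12, SE 0.0884, limma adjusted p = 0.286). Atp5g3 therefore made 47.0, 49.9 and 44.5% of the subunit c FPKM in Mettl14Δfat eWAT, against 40.9, 36.3 and 38.6% in Mettl14f/f eWAT. Its log2 ratio to Atp5g1 differed by 0.46 and to Atp5g2 by 0.52, both without overlap (exact permutation p = 0.1 for both, 0.16 after adjustment over the 8 pairs). The ratio of Atp5g1 to Atp5g2 differed by 0.06 (exact permutation p = 0.2).

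Atp5l, subunit g beside the rotor ring, had 320.4, 305 and 284 FPKM in Mettl14Δfat eWAT and 201, 231 and 220.2 FPKM in Mettl14f/f eWAT (log2 fold change 0.48, SE 0.0803, limma adjusted p = 0.00368). Atp5o, the OSCP subunit that couples the stalk to the catalytic head, had 207, 224 and 196 FPKM in Mettl14Δfat eWAT and 160.3, 150.3 and 145 FPKM in Mettl14f/f eWAT (log2 fold change 0.46, SE 0.0750, limma adjusted p = 0.0033). Atp5d, subunit delta of the central stalk, had 256, 289 and 258 FPKM in Mettl14Δfat eWAT and 188, 216 and 210.2 FPKM in Mettl14f/f eWAT (log2 fold change 0.39, SE 0.0834, limma adjusted p = 0.00972). None of these groups overlapped. Atp5d overlaps Cbarp in the annotation.

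Of the 5 genes of the catalytic head and central stalk 4 rose, and the median log2 fold change of the 5 was 0.23. Atp5b, the catalytic subunit beta and the most abundant gene of the complex, had 523, 553 and 491 FPKM in Mettl14Δfat eWAT and 475, 423 and 436 FPKM in Mettl14f/f eWAT. The lowest Mettl14Δfat library was just above the highest Mettl14f/f library, and the call was marginal (log2 fold change 0.23, SE 0.0795, limma adjusted p = 0.0488, not called in 11 of 17 alternatives). Subunit alpha, Atp5a1, rose by a log2 fold change of 0.19 (limma adjusted p = 0.0278) and subunit gamma, Atp5c1, by 0.36 (limma adjusted p = 0.00266). Subunit epsilon, Atp5e, was not called, with 130.5, 141 and 131 FPKM in Mettl14Δfat eWAT and 115, 138 and 144 FPKM in Mettl14f/f eWAT (log2 fold change 0.03, limma adjusted p = 0.837). With the length trend removed it was lower, at a log2 fold change of −0.28 (limma adjusted p = 0.0271, range 0.0271 to 0.982 in 17 alternatives).

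The other peripheral stalk subunits Atp5f1, Atp5h and Atp5j rose by log2 fold changes of 0.18 to 0.34, and the membrane subunits Atp5j2 and Atp5k by 0.20 and 0.27. Atp5j overlaps Gabpa, and Atp5a1 overlaps Haus1, in the annotation. Atp5s and Atp5sl were not called, at log2 fold changes of 0.38 and 0.16.

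RefSeq promoter windows of 300 bases were matched for 34 of the 43 genes, and not for Atp5a1, Cox4i1, Cox4i2, Cox6a2, Cox6c, Cox8c, Uqcrb, Uqcrc2 and Uqcrq. On both strands, CCGGAAG was found in 9 of the 34 windows (26.5%), against 18.1% of 10197 windows of all genes tested and 9.12% of all 27025 windows. The NRF1 site was found in 7 (20.6%, against 10.3% of genes tested and 4.78% of all windows), among them 5 of 14 in complex V and 1 of 13 in complex IV. AAGGTCA was found in 4 windows (11.8%, against 3.23% of genes tested and 4.66% of all windows), those of Atp5e, Atp5g3, Atp5k and Atp5l, all of complex V. AAGATGGCG, a motif of YY1, was found in 2 (5.88%, against 3.20% of genes tested and 1.49% of all windows). The motifs do not overlap each other in the windows printed here, and these matches are descriptions, not sites shown to be bound. Of the factors named, Gabpa was at −0.15 on the log2 scale (limma adjusted p = 0.0677), Nrf1 at 0.05 and Esrra at 0.04, none of them called, and Yy1 fell by 0.18 on the log2 scale (limma adjusted p = 0.0234).

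Among the genes that complete and assemble these complexes, more rose than fell, where 24.8% of all genes tested were higher and 24.7% lower. Of 7 other genes of complex III 5 rose and none fell, among them its assembly factors Lyrm7, which holds the Rieske protein before its insertion, and Uqcc2 (log2 fold changes 0.90 and 0.42). Cyc1, cytochrome c1, had 86.3, 90.9 and 87.3 FPKM in Mettl14Δfat eWAT and 77.2, 72.7 and 71.8 FPKM in Mettl14f/f eWAT. Of 23 tested factors for the copper, heme and assembly of complex IV, 10 rose and 2 fell, with a median log2 fold change of 0.17. The largest changes were those of Cox19 and Coa7 (1.03 and 0.94) and, in the other direction, of Coa4 and Fastkd5 (−0.41 and −0.30). Of 6 other genes of complex V 4 rose, led by 2010107E04Rik and Tmem70, an assembly factor (0.54 and 0.52). Atpif1, which inhibits ATP hydrolysis by complex V, fell, with 54.9, 49.2 and 53.2 FPKM in Mettl14Δfat eWAT and 59.6, 78.7 and 70.4 FPKM in Mettl14f/f eWAT (log2 fold change −0.39, SE 0.108, limma adjusted p = 0.0225). The groups did not overlap, although the lowest Mettl14f/f library was close to Mettl14Δfat replicate 1. The mitochondrially encoded subunits of the 3 complexes were not analysed here.

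The supercomplex factors Higd2a and Higd1a rose by log2 fold changes of 0.68 and 0.66. Their list also holds Minos1 (now Micos10), Chchd3 and Immt, genes of the MICOS complex of the inner membrane rather than supercomplex factors. In all, 4 of 5 genes of that list were higher, Minos1 and Chchd3 among them. For this list and those that follow, the shares over all genes tested were 24.8% higher and 24.7% lower. In other parts of the chain, 34 of 45 genes with symbols starting with Nduf were higher and none lower (median 0.37). They were taken as complex I but include Ndufa4, a gene of complex IV, which was higher at 0.32 (limma adjusted p = 0.00791). Of 8 genes of complex II, 4 were higher and none lower (median 0.22), led by its assembly factors Sdhaf3 and Sdhaf1 (0.63 and 0.40). Of 77 mitochondrial ribosomal protein genes, 41 were higher and 3 lower (median 0.25). The difference between these groups and complexes III, IV and V was not tested. For cytochrome c and coenzyme Q, the mobile carriers on either side of complex III, 6 of 13 genes were higher and 2 lower, with Coq9 and Coq7 at 0.65 and 0.58 and Coq10a and Hccs at −0.54 and −0.29.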

How the data were processed

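RNA-seq values of 6 eWAT libraries were analysed, 3 Mettl14Δfat and 3 Mettl14f/f, each from 1 mouse. The authors deposited FPKM per library, rounded to 2 decimals. The build is mm10 and the tools HISAT2, Bowtie2, RSEM and DESeq2 by the submitters' processing notes, whereas STAR and HTSeq are named with DESeq2 in the paper; no source used here gives versions. Another deposited table, made by the authors, holds their own fold changes and p-values, which were not used, and a mean signal per group (a scaled count), which with gene length served only to estimate depth. Single libraries' depths are unknown, so precision rests on the spread between mice. No column of another sample was present, and 1 row without a gene name was left out.

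FPKM were scaled between libraries by an unweighted trimmed mean of M values (30% of ratios and 5% of levels trimmed). Genes averaging 1 FPKM or more, 12955 in all, were tested on log2(scaled FPKM + 1) by limma 3.58.1 in R 4.3.3 (lmFit, eBayes with a mean-variance trend, two-sided, Benjamini-Hochberg adjustment over all genes tested), so fold changes of low genes are understated. A call is an adjusted p under 0.05. As FPKM are not counts, no count test was run. Isoform ratios used FPKM + 0.01 and exact permutation tests. Transcript lengths are those of the longest GENCODE transcript of GRCm38, found for 99.1% of genes tested. Gene coordinates and promoters came from RefSeq (GRCm38.p6).

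Values per library are given for tissue isoforms and their partners, the subunit c genes, and per complex the 4 largest increases, the 2 largest decreases and the highest mean; of each pathway list up to 2 called genes each way are named. Adipoq, Ucp1, Kcnk3, Prm1, Cyc1 and Atpif1 were given values beyond this rule, after their values were seen. Mettl14, Atp5e, Chchd10, Epas1 and Ppargc1a, which the rule does not name either, were also given values. The members and lists were chosen with earlier results of these data known. Alternatives were no filter, a filter of 1 FPKM in every library, a pseudocount of 0.1, 2 other scalings, FPKM as deposited, no mean-variance trend, a replicate block, each library left out, Mettl14Δfat replicate 3 alone, a germ line covariate and, added after seeing the data, removal of the transcript length trend. In a simulation (simulated data, 12875 genes), 6% of 50 genes changed 1.2-fold and 48.9% of 47 changed 1.5-fold were recovered. Recovery was 79.2% of 48 genes changed 2-fold and 95.3% of 43 changed 4-fold, and 7.89% of calls were false. Far fewer genes changed there than were called in the data (3214 higher and 3202 lower), so these rates do not describe the calls reported here.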

Additional observations from a re-analysis of the deposited data

How the results depend on the processing

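Leaving out 1 library at a time gave 5 to 7 genes higher in complex III, 13 to 15 in complex IV and 6 to 12 in complex V, 8 to 17 not called and 0 lower; the lowest count in complex V was without Mettl14Δfat replicate 1, and without Mettl14f/f replicate 2 or 3 it was 7. The same fits gave 2256 to 3813 of all genes higher and 2202 to 3565 lower, and 36 to 47 genes of the pathway lists higher and 6 to 10 lower. The log2 ratio of Cox6a2 to Cox6a1 ranged from −0.23 to 0.43 and that of Cox6b2 to Cox6b1 from −0.60 to 0.29, so both changed sign, and the other 6 ratios kept theirs. With scaling factors from all genes, 7 genes of complex V were higher, 17 were not called and Atp5e was at −0.045, beside 21.2% of all genes higher. With FPKM as deposited, 4 were not called, 1963 of all genes were lower and 4 genes of the pathway lists were lower. With Mettl14Δfat replicate 3 alone, 4 genes of complex III and 3 of complex V were higher, 1 gene was lower (Cox6b2, −0.59) and 21 were not called, beside 1656 of all genes higher and 1519 lower, 25 pathway genes higher and 4 lower, and log2 ratios of −1.41 for Cox6b2 to Cox6b1 and 0.36 for Atp5g3 to Atp5g2. With the germ line covariate, 5 genes of complex V were higher, 1 was lower (Cox6b2, −0.58) and 16 were not called, Atp5e was at −0.012, and 2124 of all genes were higher and 2051 lower, with 29 pathway genes higher and 5 lower. With the transcript length trend removed, chosen after seeing the data, 4 genes of complex III and 5 of complex V were higher, 1 was lower (Atp5e, −0.28) and 21 were not called, and Uqcrb was at −0.017, Atp5g2 at −0.11, Atp5k at −0.046 and Cox7a2l at −0.050. With 1 library left out Atp5e ranged from −0.076, without Mettl14f/f replicate 1, to 0.087, and was at −0.0035 without Mettl14Δfat replicate 2. The cause of these changes was not tested. The methods do not say whether the replicate numbers pair mice. Same-numbered libraries deviated with correlations of 0.04, −0.09 and −0.13 over genes, and differently numbered ones with −0.06 to 0.16. Because the deviations within a genotype sum to 0, these correlations cannot show whether mice were paired. With a replicate block, 7 genes of complex V were higher and 27 of 42 in all, beside 20.5% of all genes. A pseudocount of 0.1, median-of-ratios scaling and no mean-variance trend each gave 32 higher, beside 25.1%, 24.7% and 24.8% of all genes. No filter gave 30 of 42, beside 16.5% of all genes. At least 1 FPKM in every library gave 31 of 41, beside 25.2% of all genes.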

Other observations

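Of 17 regulators of mitochondrial gene expression tested, 3 rose and 2 fell, with a median log2 fold change of 0.08. Among all genes tested, 24.8% were higher and 24.7% lower, with a median of 0.01. Tefm, the mitochondrial transcription elongation factor, and Gabpb1, the partner of GABPA, rose by 0.45 and 0.35, while Pprc1, a coactivator related to PGC-1α, fell by 0.28 on the log2 scale. Ppargc1a, which encodes PGC-1α, was under the filter, at 0.601, 0.886 and 0.251 FPKM in Mettl14Δfat eWAT and 0.332, 0.140 and 0.223 FPKM in Mettl14f/f eWAT, which overlapped.

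Of 5 genes that link the respiratory chain to oxygen, 4 rose and 1 fell, where 24.8% of all genes tested were higher and 24.7% lower. Chchd10, whose product lies in the mitochondrial intermembrane space, had 369, 428 and 339 FPKM in Mettl14Δfat eWAT and 42.9, 60.2 and 62.1 FPKM in Mettl14f/f eWAT (log2 fold change 2.77, SE 0.160, limma adjusted p = 1.7e-04). Epas1, the factor HIF-2α that endothelial cells also express, had 113, 127 and 99.0 FPKM in Mettl14Δfat eWAT and 65.7, 61.4 and 71.9 FPKM in Mettl14f/f eWAT (log2 fold change 0.75, limma adjusted p = 0.00201), and Hif1a fell by 0.37 on the log2 scale. The endothelial markers were higher in the same libraries, and their part in the level of Epas1 was not tested.

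Of 13 other genes of mitochondrial mass, 7 rose and 1 fell (median 0.23), where 24.8% of all genes tested were higher and 24.7% lower. The chaperonin Hspe1 and the import channel Timm23 rose by 0.64 and 0.61, while Vdac2, a channel of the outer membrane, fell by 0.60 on the log2 scale.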
